A study of Mus musculus with 2 samples.

Results

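The cells described here were alveolar cells of the mouse lung that carried RNA of Areg, a ligand of the epidermal growth factor receptor (EGFR), or of Sprr1a, a cornified envelope protein of stratified epithelia. They came from adult C57BL/6 lungs whose Epcam-positive cells, Epcam being an adhesion protein of epithelia, had been purified by flow cytometry and profiled as single cells in droplets, with reads from the 3' ends of transcripts. There was 1 library after the injury that the labels abbreviate as NAPH and 1 Control library, both from the same strain. The sources used here give no dose, no time after injury, no sex and no number of animals for either library. A barcode was a member when, per 10000 of its unique molecular identifiers (UMIs), it held at least 500 of Sftpc, fewer than 1000 of Scgb1a1, fewer than 10 of Foxj1, Ccdc153 and Tmem212 together and at least 5 of Areg and Sprr1a together, with fewer than 3 UMIs of the division genes Mki67 and Top2a. Of 6983 barcodes, 179 met this rule, 154 of 3685 in the NAPH library and 25 of 3298 in the Control library. They are called transitional cells below. The other cells that met the Sftpc gate with too little Areg and Sprr1a, 2407 in the NAPH library and 1785 in the Control library, are called the other Sftpc-gated cells.

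Alveolar type 2 (AT2) cells make surfactant, whose protein C is encoded by Sftpc, and act as stem cells of the alveolus. On the way from AT2 cells to the flat alveolar type 1 (AT1) cells, mouse alveolar epithelium is known to pass through a transitional state with high Krt8, a keratin of simple epithelia, and with Sfn, Cldn4, Lgals3 and genes of the p53, AP-1 and TGF-beta pathways. Areg and Hbegf are made as membrane-bound precursors, are shed by proteases and bind EGFR on the same or on neighbouring cells.

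Transitional cells made up 6.01% of the Sftpc-gated cells that were not dividing in the NAPH library (154 of 2561, exact 95% binomial interval 5.12% to 7.005%) and 1.38% in the Control library (25 of 1810, 0.896% to 2.03%). The ratio of these shares was 4.35, with an exact 95% Poisson interval of 2.84 to 6.94. Of all barcodes of a library they made up 4.18% in NAPH and 0.758% in Control, a ratio of 5.51 (3.60 to 8.78). With 1 library per group there was no replicate check, so each difference is one between these libraries, and intervals cover counting error only. Because the members were chosen from these same values, the values are a description and no test was made.

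The summed level of Areg and Sprr1a per 10000 UMIs ran from 5.01 to 184.6 with a median of 8.998 in NAPH transitional cells, and from 5.17 to 84.0 with a median of 7.38 in Control transitional cells. The threshold cut through a continuous range. The cells nearest to it outside held 4.99 in NAPH and 4.63 in Control, and within 1 unit of it there were 32 cells above and 46 below in NAPH and 7 above and 7 below in Control. No UMI of either gene was seen in 69.4% of the other NAPH and 89.0% of the other Control Sftpc-gated cells. Most members were chosen through Areg. Areg alone was seen in 117 NAPH members (76.0%) and 18 Control members (72%), both genes in 32 and 5, and Sprr1a alone in 5 and 2.

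Depth did not set the NAPH members apart from their neighbours. The median barcode held 9594.5 UMIs and 2450 genes in NAPH transitional cells, against 9604 UMIs and 2308 genes in the other NAPH Sftpc-gated cells. In the Control library the medians were 8456 UMIs and 2212 genes in transitional cells, against 7675 UMIs and 1904 genes in the others. The mitochondrial share of UMIs was 3.14% in NAPH members and 3.22% in the NAPH others, and 2.97% in Control members and 3.57% in the Control others. The median doublet score was 0.0304 in NAPH members against 0.0488 in the others, and 0.0179 in Control members against 0.0396 in the others. The libraries shared 14 barcode sequences, and 0 of these belonged to a member.

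Krt8 had the highest level of the 3 markers that the rule had not used. Levels here are UMIs per 1000000 (CPM) of all UMIs summed over a cell group, and a ratio is the level in transitional cells over that in the others of the same library. Krt8 stood at 1028 CPM in NAPH transitional cells and 218 CPM in the other NAPH cells, a ratio of 4.72 (4.46 to 4.99), and at 895 CPM in Control transitional cells and 150 CPM in the other Control cells, a ratio of 5.97 (5.12 to 6.92). A Krt8 UMI was found in 92.2% of the 154 NAPH members and in all 25 Control members, against 67.6% and 55.0% of the others. In leukocytes of these libraries, which should lack Krt8 and held medians of 7906 and 7930 UMIs, the share was 13.3% in NAPH and 6.402% in Control. Sfn, which encodes the 14-3-3 protein stratifin, stood at 379 CPM in NAPH transitional cells and 74.5 CPM in the others, a ratio of 5.09 (4.62 to 5.59), and at 389 CPM in Control transitional cells and 43.6 CPM in the others, a ratio of 8.92 (7.01 to 11.2), or 4.55 (2.86 to 6.93) with barcodes thinned to 3500 UMIs. The levels of Krt8 and Sfn in transitional cells of the 2 libraries lay close together, while those in the surrounding cells were higher in NAPH.

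Hbegf went against the label in the Control library. It stood at 94.5 CPM in NAPH transitional cells (144 UMIs in 48 of 154 cells) and 14.8 CPM in the other NAPH cells, a ratio of 6.37 (5.21 to 7.75). In the 25 Control transitional cells 1 UMI was found, 4.69 CPM, against 9.74 CPM in the other Control cells, and the ratio of 0.481 had an interval of 0.0121 to 2.73. Of the 5 markers, Hbegf was thus the one that did not stand out in Control members; Areg and Sprr1a stood out by the rule itself. Areg stood at 904 CPM in NAPH members and 54.4 CPM in the NAPH others, and at 727 CPM in Control members and 20.8 CPM in the Control others. Sprr1a stood at 659 and 2.90 CPM in NAPH members and others, and at 577 and 0.640 CPM in Control members and others, with 24.7% of its NAPH UMIs in a single cell. A Sprr1a UMI was found in 2.08% (1.55% to 2.73%) of the other NAPH Sftpc-gated cells and in 1.19% (0.437% to 2.57%) of NAPH leukocytes. The share among the others was capped by the rule, and how much of it is free RNA was not tested.

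**Figure D1:**
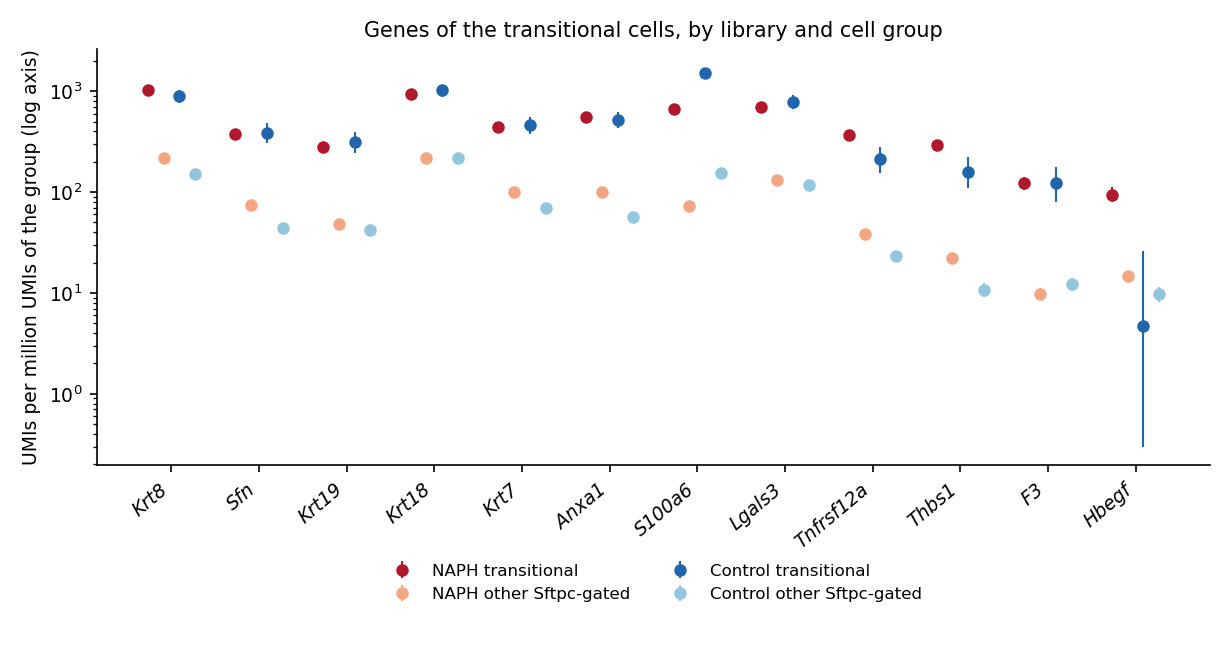
CPM of the cell group (log axis) for 12 genes in NAPH transitional cells, other NAPH Sftpc-gated cells, Control transitional cells and other Control Sftpc-gated cells; bars are exact 95% Poisson intervals for counting error. For 11 genes both transitional groups lie above both groups of other cells, and for Hbegf the Control transitional cells, with 1 UMI, lie below.

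The promoters of the genes that define these cells and of the genes highest in them were searched for 2 motifs, on both strands, in the 250 bases before to 50 bases after the start of transcription given by RefSeq for GRCm38.p6. Sequences were used for 12 of 17 genes. Those of Hbegf, Thbs1, Prkcdbp, Krt19 and Ndnf were not searched, so nothing is said of their promoters. The AP-1 element TGANTCA occurs in 7.81% of all 32851 such promoters and the cyclic AMP response element TGACGTCA in 1.79%. The 2 motifs did not overlap in the sequences shown. Positions are those of a match's first base relative to the start site. Areg, Sprr1a and F3 are shown because Areg and Sprr1a define the cells and F3 was among the genes highest in both libraries. Capitals mark the matches. Areg lies on the plus strand at chr5:91139349-91139648 and holds 1 cyclic AMP response element at position -61. Sprr1a lies on the minus strand at chr3:92485832-92486131 and holds AP-1 elements at -146 and -116. F3 lies on the plus strand at chr3:121723287-121723586 and holds AP-1 elements at -146 and -135.
Areg: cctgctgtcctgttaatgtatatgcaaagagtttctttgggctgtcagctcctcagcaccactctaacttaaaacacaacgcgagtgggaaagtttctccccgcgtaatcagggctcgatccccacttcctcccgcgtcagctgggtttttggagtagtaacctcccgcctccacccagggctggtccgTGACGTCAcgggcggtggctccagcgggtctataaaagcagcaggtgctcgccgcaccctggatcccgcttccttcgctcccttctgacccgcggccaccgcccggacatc
Sprr1a: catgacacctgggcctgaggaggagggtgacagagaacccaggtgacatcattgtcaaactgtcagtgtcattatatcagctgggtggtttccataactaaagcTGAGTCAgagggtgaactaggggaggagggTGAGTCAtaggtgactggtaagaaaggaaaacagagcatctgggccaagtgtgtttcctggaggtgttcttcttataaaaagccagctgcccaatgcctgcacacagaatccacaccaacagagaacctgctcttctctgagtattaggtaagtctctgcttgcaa
F3: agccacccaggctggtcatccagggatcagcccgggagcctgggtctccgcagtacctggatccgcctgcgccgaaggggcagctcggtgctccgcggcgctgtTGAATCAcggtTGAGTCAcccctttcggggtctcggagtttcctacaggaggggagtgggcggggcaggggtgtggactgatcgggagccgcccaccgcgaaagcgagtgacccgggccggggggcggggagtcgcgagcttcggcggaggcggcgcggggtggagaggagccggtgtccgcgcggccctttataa
Il6 held 1 AP-1 element, and Krt8, Sfn, Cxcl2, Cyr61, Tnfrsf12a, S100a6, Anxa1 and Lgals3 held neither motif in this window. A match of letters is a description and not a measured binding site.

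Across all genes, those at least 2 times higher in transitional cells outnumbered those at least 2 times lower. A gene was compared where the mean of the 2 levels was worth at least 10 UMIs in the smaller group. In the NAPH library 215 of 7800 genes compared (2.76%) were at least 2 times higher and 69 (0.885%) at least 2 times lower. In the Control library, with 25 members, 147 of 2056 (7.15%) were higher and 46 (2.24%) lower. The rule used these contrasts, so nothing is read from the counts themselves. The balance of the counts depended on scaling. With TMM scaling the counts were 154 higher and 126 lower in NAPH and 61 higher and 127 lower in Control, TMM having shifted all log2 ratios by -0.13 in NAPH and by -0.30 in Control. With totals that left out the 20 genes with most UMIs they were 176 and 105 in NAPH and 89 and 87 in Control. Without such rescaling the median log2 ratio of all genes compared was 0.10 in NAPH and 0.22 in Control.

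Of the 2056 genes compared in both libraries, 44 were at least 2 times higher in NAPH transitional cells and 147 in Control transitional cells, and 42 in both. These 42 were 95.5% of the NAPH genes and 28.6% of the Control genes. They include Areg and Sprr1a, which the rule itself made high. The 44 are a part of the 215 genes at least 2 times higher in NAPH. A gene low in the other Control cells was compared only when it was high in Control members. The minimum level thus partly fixed the overlap, and nothing is read from it. Of those at least 2 times lower, 6 in NAPH and 46 in Control, 3 were shared. The 8 genes with the highest smaller ratio of the 2 libraries were Thbs1, F3, S100a6, Tnfrsf12a, Krt19, Anxa1, Lgals3 and Ndnf.

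Thbs1, the matrix glycoprotein thrombospondin 1, stood at 294 CPM in NAPH transitional cells and 22.1 CPM in the others, a ratio of 13.3 (11.7 to 15.1), and at 159 CPM in Control transitional cells and 10.8 CPM in the others, a ratio of 14.7 (9.85 to 21.5). F3, tissue factor, the receptor that starts blood clotting, stood at 122 and 9.84 CPM in NAPH members and others and at 122 and 12.2 CPM in Control members and others. Its ratios were 12.4 (10.2 to 15.1) in NAPH and 10.0 (6.37 to 15.2) in Control. Tnfrsf12a, the receptor of the cytokine TWEAK, had ratios of 9.65 (8.67 to 10.7) in NAPH and 9.07 (6.49 to 12.4) in Control. The calcium-binding protein gene S100a6 had ratios of 9.08 (8.40 to 9.82) in NAPH and 9.93 (8.81 to 11.2) in Control, from 665 CPM in NAPH members and 1519 CPM in Control members. These 4 genes had overlapping intervals in the 2 libraries, although the levels of S100a6 and of Thbs1 in the members differed between them. With Areg alone as the rule the ratios of S100a6 were 5.47 in NAPH and 4.84 in Control. With barcodes thinned to 3500 UMIs F3 had a ratio of 7.13 (5.11 to 9.89) in NAPH, and Tnfrsf12a one of 4.65 (2.54 to 7.92) in Control.

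Krt19, a keratin of ductal epithelia, had ratios of 5.81 (5.18 to 6.50) in NAPH and 7.50 (5.73 to 9.67) in Control. Anxa1, a phospholipid-binding protein that limits inflammation, had ratios of 5.51 (5.09 to 5.96) in NAPH and 9.13 (7.42 to 11.2) in Control. Lgals3, the lectin galectin-3, had ratios of 5.36 (4.999 to 5.75) in NAPH and 6.675 (5.66 to 7.83) in Control, and Ndnf, a secreted glycoprotein, 5.16 (4.44 to 5.97) and 5.68 (4.02 to 7.82). Anxa1 was the member of these 8 whose intervals did not overlap, and its levels in transitional cells, 554 CPM in NAPH and 520 CPM in Control, were nevertheless alike. With thinned barcodes its Control ratio was 5.36 (3.80 to 7.39). With Areg alone as the rule the Control ratio of Lgals3 was 4.31 (3.46 to 5.31).

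Further genes among the highest in NAPH rested on few cells or were under the minimum level in Control. Cyr61, a matricellular protein and YAP target, had a ratio of 11.8 (9.48 to 14.7) in NAPH, where 16.9% of members held a UMI, and Prkcdbp, a coat protein of caveolae, one of 8.25 (6.42 to 10.5). From 15 and 16 UMIs in Control members, their Control ratios were 12.8 (6.86 to 22.5) for Cyr61, with 53.3% of the UMIs in 1 cell, and 14.1 (7.65 to 24.4) for Prkcdbp, with 50% in 1 cell. With thinned barcodes the NAPH ratio of Cyr61 was 7.54 (5.10 to 11.1). Cxcl2, a chemokine for neutrophils, had the highest ratio among genes with at least 50 CPM, 14.7 (11.5 to 18.8), but its 129 UMIs came from 10 of 154 cells and 54.3% of them from 1 cell. The cytokine gene Il6 had a ratio of 6.21 (4.88 to 7.84) in NAPH, with 101 UMIs in 14.9% of the members, 38.6% of them in 1 cell. No UMI of Il6 was found in the Sftpc-gated cells of the Control library.

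**Figure D2:**
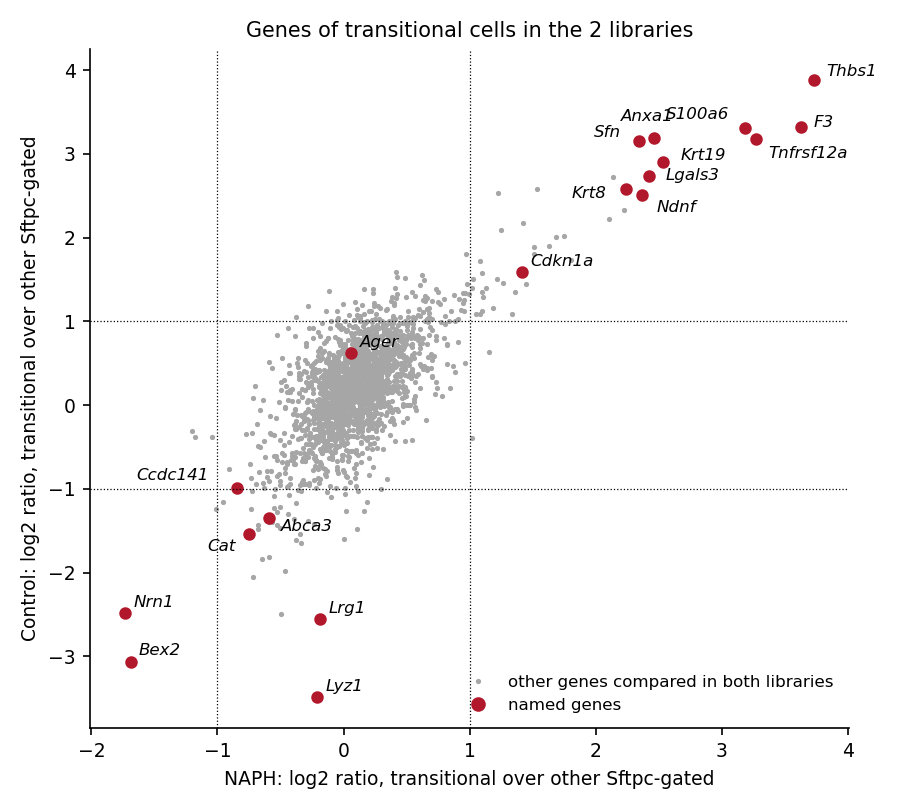
Each point is a gene compared in both libraries, without the genes of the rule: the log2 ratio of transitional over other Sftpc-gated cells in NAPH (horizontal) against that in Control (vertical), with dotted lines at 2 times higher and lower. Thbs1, F3, S100a6 and Tnfrsf12a lie at the upper right in both libraries, Nrn1 and Bex2 at the lower left, and Lyz1 and Lrg1 are low on the vertical axis only.

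Simple-epithelial keratins were high as a group. Of 6 keratins compared in NAPH 4 were at least 2 times higher and 0 lower, with a list median log2 ratio of 2.12, and of 5 in Control 4 were higher, with a median of 2.58. They were Krt7, Krt8, Krt18 and Krt19 in both libraries. Krt18, the partner of Krt8 in filaments, stood at 945 CPM in NAPH members and 220 CPM in the others, and at 1017 CPM in Control members and 218 CPM in the others. Krt7 stood at 443 and 101 CPM in NAPH members and others, and at 459 and 69.6 CPM in Control members and others. The basal-cell keratins Krt5 and Krt14 and the basal factor Trp63 had 0 UMIs in the members of both libraries.

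Most genes listed for the transitional state that could be compared were high in both libraries. In NAPH 20 of 24 (median log2 ratio 2.27) and in Control 15 of 16 (2.46) were at least 2 times higher and 0 lower. Of 26 genes listed, 16 were compared in Control, where a gene low in the others entered only when high in members. Hbegf, also listed, was not compared there, with 1 UMI in Control members and a ratio of 0.481. The list was drawn up with results of these libraries known. The highest in NAPH were Plaur, the urokinase receptor, with a ratio of 28.1 (16.9 to 47.8) from 45 UMIs in members, Cldn4, a tight junction claudin, with 13 (8.33 to 20.2), and the membrane protein Emp1 with 11.4 (8.07 to 15.98). Nupr1, a stress-response gene on the same list, was lower, at 310 CPM in NAPH members against 450 CPM in the others and at 366 CPM in Control members against 559 CPM in the others. Clu, the chaperone clusterin, stood at 703 CPM in NAPH members against 246 CPM in the others, a ratio of 2.86 (2.67 to 3.05), and its Control ratio was 3.70 (3.05 to 4.45).

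S100 proteins and annexins bind calcium or membranes. Of 16 compared, 7 were at least 2 times higher in NAPH (median log2 ratio 0.82) and 10 in Control (1.15), with 0 lower. With TMM scaling 4 were higher in NAPH and 5 higher and 1 lower in Control. Beside S100a6 and Anxa1, S100a14 had ratios of 4.67 (3.82 to 5.69) in NAPH and 5.05 (2.94 to 8.16) in Control. Anxa2, which binds plasminogen activators at the cell surface, had 2.16 (2.03 to 2.29) and 2.46 (2.12 to 2.84).

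Genes of cornified and stratified epithelium other than Sprr1a were 6 of 10 at least 2 times higher in NAPH (median 1.09) and 1 of 2 in Control. Ivl, involucrin, a scaffold protein of the envelope, had a ratio of 16.1 (11.1 to 23.5) in NAPH from 61 UMIs in 12.3% of the members. Tgm2, a transglutaminase, had 2.38 (1.58 to 3.49), Ppl, a plakin of desmosomes, 2.11 (1.66 to 2.655), and Perp, a desmosomal protein induced by p53, 2.16 (1.66 to 2.77). Ly6d had 76.2% of its 21 NAPH UMIs in 1 cell.

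Of basement membrane and integrin genes 6 of 14 were at least 2 times higher in NAPH (median 0.74) and 2 of 6 in Control (0.71), with 0 lower. Thbs1, described above, was among them in both libraries. Itgb6, a subunit of the integrin that activates TGF-beta, had a ratio of 3.23 (2.10 to 4.81) in NAPH and 7 UMIs in Control members. Of the TGF-beta list 3 of 14 were at least 2 times higher in NAPH, Tgfb3, Tgfbi and Pmepa1, and 0 of 2 in Control. Pmepa1, a TGF-beta target, stood at 116 CPM in NAPH members and 48.1 CPM in the others. Of the urokinase and matrix protease list 1 of 5 was higher in NAPH, Plaur, and 1 of 3 in Control, Timp2.

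Among EGFR ligands, Hbegf was higher in NAPH as given above, and 1 of 2 ligands compared outside the rule was at least 2 times higher there. Tgfa had a ratio of 1.52 (0.868 to 2.51). Ereg, which lies beside Areg in the genome, had 9 UMIs in NAPH members and 5 in the NAPH others, Epgn 3 and 0, and Btc 9 and 98, all below the level at which genes were compared. Of the ErbB receptor and feedback list 2 of 8 were at least 2 times higher in NAPH, Spry2 at 2.03 (1.72 to 2.38) and Dusp6 at 2.19 (1.70 to 2.79), both inhibitors of the ERK pathway that ERK itself induces. With TMM scaling 0 of 8 were, and 0 of 3 were in Control.

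AP-1 and immediate early genes were 6 of 17 at least 2 times higher in NAPH (median 0.67) and 1 of 9 in Control (0.39). Fosl1, an AP-1 subunit of migrating and injured epithelia, had 29 UMIs in 11.7% of NAPH members and 4 UMIs in 2407 other cells, a ratio of 113 (39.7 to 443), and 2 UMIs in Control members and 0 in the Control others. Atf3 had a ratio of 4.56 (3.38 to 6.08) in NAPH, Fosl2 2.80 (2.22 to 3.50), and Ier3 2.63 (2.10 to 3.26). Fos, a subunit of AP-1, stood at 131 CPM in NAPH members and 116 CPM in the others, and at 65.6 CPM in Control members and 87.6 CPM in the others. Jun had ratios of 1.24 (1.09 to 1.40) in NAPH and 1.31 (0.963 to 1.75) in Control. Klf6, a zinc finger factor of this list, was at least 2 times higher in both libraries and was the 1 gene of the list called in Control.

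NF-kB targets and chemokines were 7 of 17 at least 2 times higher in NAPH (median 0.41) and 2 of 4 in Control (0.67). Nfkbia, the inhibitor that NF-kB induces, stood at 213 CPM in NAPH members and 79.6 CPM in the others, a ratio of 2.68 (2.37 to 3.01), and its Control ratio was 4.50 (3.32 to 5.98). Tnip3, an inhibitor of NF-kB signalling, had 9.29 (5.43 to 15.6) in NAPH with 44.0% of its 25 UMIs in 1 cell, and the chemokine Cxcl1 3.52 (2.67 to 4.60) with 25% in 1 cell. Of YAP targets 3 of 8 were higher in NAPH, Cyr61, F3 and Ajuba, and of p53 targets 2 of 15 were higher and 1 lower. Cdkn1a, the cell cycle inhibitor p21, stood at 154 CPM in NAPH members and 57.8 CPM in the others, a ratio of 2.67 (2.31 to 3.06), and at 117 CPM in Control members and 39.1 CPM in the others, a ratio of 3.001 (1.93 to 4.48). Sesn2, a stress-induced p53 target, was lower at 0.303 (0.121 to 0.632) from 7 UMIs in NAPH members.

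Over all genes compared, 2.76% were at least 2 times higher in NAPH and 7.15% in Control. The counts of the other lists stand beside these shares. Of NRF2 targets 1 of 18 was higher in NAPH, the antioxidant gene Srxn1 at 4.86 (3.68 to 6.36), and 1 of 12 in Control. Of heat shock genes 2 of 13 were higher in NAPH and 2 of 8 in Control, with the small chaperone Hspb1 at 2.14 (1.86 to 2.47) and 2.55 (1.91 to 3.34). Of cytoskeletal genes 1 of 24 was higher in NAPH, the actin cross-linker Flna at 3.10 (2.61 to 3.66), and 6 of 20 in Control, while the list medians, 0.67 and 0.82, lay above those of all genes. Of claudins and tight junction genes 3 of 12 were higher in NAPH and 1 of 5 in Control, and of glycolysis and hypoxia genes 1 of 15 and 2 of 9. Unfolded protein response genes (19 in NAPH, 9 in Control) and MHC class II genes (6 and 6) held none past 2 times in either direction. Interferon response genes held 0 of 10 higher in NAPH and 1 of 3 in Control, and genes of S, G2 and M phase 0 of 13 and 2 of 6. With TMM scaling the NAPH counts of higher genes were 4 of 10 for cornified, 2 of 14 for AT1, 5 of 14 for basement membrane, 1 of 15 for TGF-beta and 1 of 12 for tight junction genes. In Control they were 2 of 10 for AT1 and 4 of 20 for cytoskeletal genes, and 0 for NRF2, glycolysis, tight junction, interferon and urokinase genes. Of S, G2 and M phase genes 1 of 6 was higher there, and of the NF-kB list 1 was higher and 1 lower.

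The RNA of surfactant proteins remained abundant in transitional cells. Of 25 AT2 genes compared in NAPH 0 were at least 2 times higher and 1 lower, with a median log2 ratio of -0.23. Sftpb stood at 12305 CPM in NAPH members and 13608 CPM in the others, Lamp3, a lamellar body protein, at 1196 and 1251 CPM, and Slc34a2, the phosphate carrier of AT2 cells, at 2909 and 4126 CPM. Sftpd, the collectin surfactant protein D, was slightly higher, with a ratio of 1.15 (1.13 to 1.18) in NAPH and 1.33 (1.26 to 1.41) in Control. Sftpc itself, on which the rule set a minimum, stood at 171882 CPM in NAPH members and 208868 CPM in the others, and at 185929 CPM in Control members and 240760 CPM in the others.

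In the Control library the AT2 list stood lower. There 8 of 25 genes were at least 2 times lower in transitional cells and 0 higher, with a median of -0.66, and 11 were lower with TMM scaling. They included Lyz1, a lysozyme with the near copy Lyz2, at 272 CPM in Control members and 3043 CPM in the others, a ratio of 0.0894 (0.0678 to 0.116). Of these 58 UMIs in Control members 81.0% came from 1 cell, and 24% of the members held one, against 49.2% of the others. The NAPH ratio of Lyz1 was 0.866 (0.828 to 0.905). Abca3, the lipid pump of lamellar bodies, stood at 220 CPM in Control members and 562 CPM in the others, a ratio of 0.392 (0.288 to 0.522), and at 380 CPM in NAPH members and 574 CPM in the others, a ratio of 0.663 (0.609 to 0.721). Whether the 2 libraries differ in these ratios was not tested.

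Genes of lipid synthesis, which feeds surfactant, followed the same pattern. In NAPH 0 of 23 were past 2 times in either direction (median -0.06), and in Control 0 of 16 were higher and 3 lower (median -0.79), or 9 lower with TMM scaling. Scd1, a fatty acid desaturase, stood at 9172 CPM in NAPH members and 11138 CPM in the others, a ratio of 0.824 (0.8095 to 0.838), and at 1060 CPM in Control members and 2772 CPM in the others, a ratio of 0.382 (0.334 to 0.436).

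AT1 genes were higher in part. Of 14 compared, 3 were at least 2 times higher in NAPH (median 0.67), Cav2, Ahnak and Krt7, and 4 of 8 in Control (0.93), Emp2, Timp3, Ahnak and Krt7, with 0 lower. Ager, the abundant receptor of AT1 cells, stood at 1574 CPM in NAPH members and 1509 CPM in the others, a ratio of 1.04 (1.001 to 1.09), and at 1744 CPM in Control members and 1137 CPM in the others, a ratio of 1.53 (1.38 to 1.70). Aqp5, the water channel, had ratios of 1.37 (1.28 to 1.46) in NAPH and 1.56 (1.31 to 1.85) in Control. Hopx had 9 UMIs in NAPH members and 1 in Control members, Pdpn 3 and 0, and Rtkn2 0 and 0.

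Of transcription factors of lung epithelium 2 of 21 were at least 2 times higher in NAPH and 1 of 11 in Control, the factors Klf6 and, in NAPH, Klf2. Klf6 had ratios of 2.33 (2.004 to 2.69) in NAPH and 2.84 (1.97 to 3.99) in Control. Nkx2-1, the lung lineage factor, stood at 307 CPM in NAPH members and 353 CPM in the others, and at 291 CPM in Control members and 336 CPM in the others. Etv5, a factor that maintains AT2 cells, had ratios of 0.680 (0.605 to 0.762) in NAPH and 0.655 (0.496 to 0.850) in Control.

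**Figure D3:**
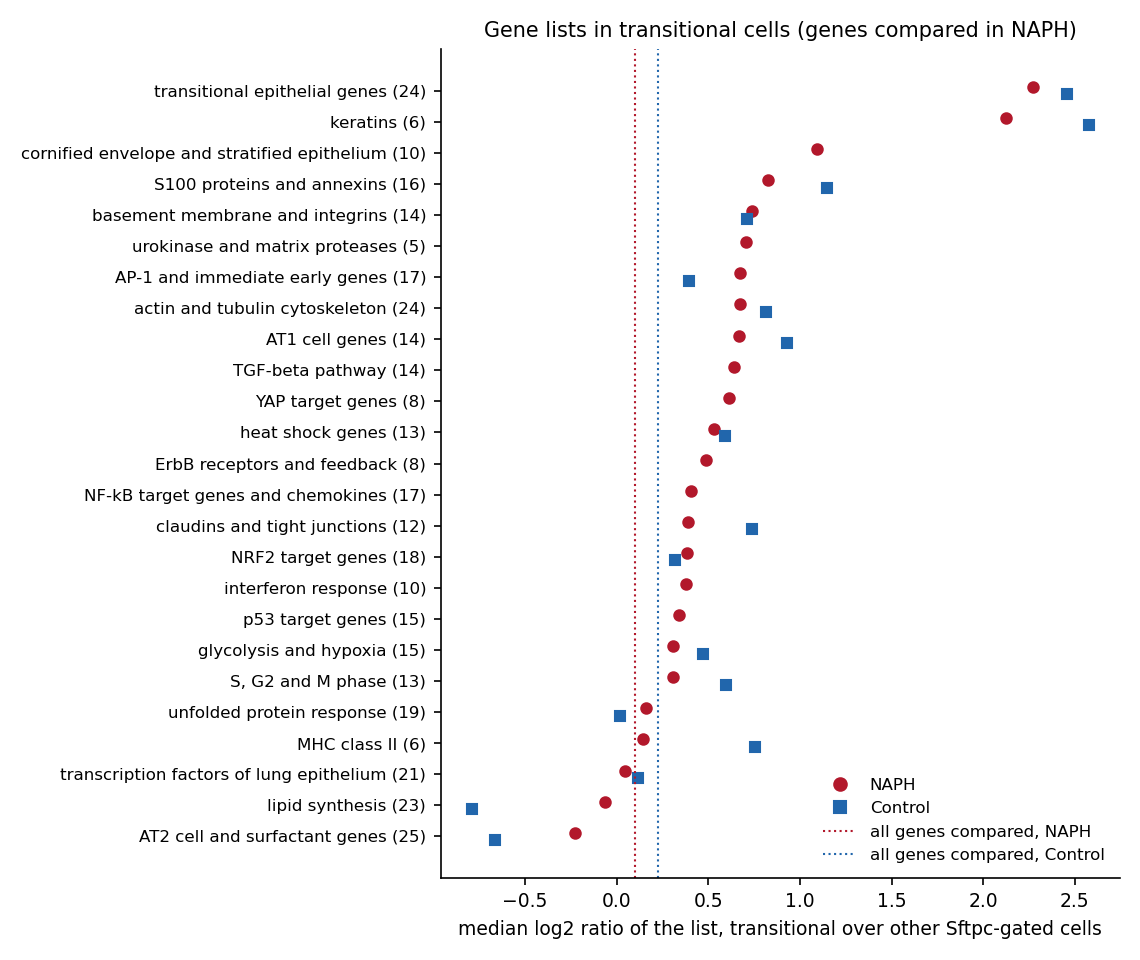
Median log2 ratio of transitional over other Sftpc-gated cells for each gene list with at least 5 genes compared, circles for NAPH and squares for Control; the number in parentheses is the genes compared in NAPH and dotted lines mark the median of all genes compared. Transitional and keratin lists lie above 2 in both libraries, and the AT2 and lipid synthesis lists lie lowest, at -0.66 and -0.79 in Control.

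Few genes were much lower in transitional cells of both libraries. Nrn1, a neuritin of the cell surface, stood at 17.1 CPM in NAPH members and 56.8 CPM in the others, a ratio of 0.301 (0.196 to 0.442), and at 18.8 CPM in Control members and 105 CPM in the others, a ratio of 0.179 (0.0488 to 0.460). With members chosen by at least 5 raw UMIs the NAPH ratio of Nrn1 was 0.543 (0.410 to 0.707), no longer 2 times lower. Bex2, which has near copies in its family, stood at 52.5 CPM in NAPH members and 169 CPM in the others, a ratio of 0.310 (0.245 to 0.387), and at 60.9 CPM in Control members and 509 CPM in the others, a ratio of 0.120 (0.0637 to 0.205), or 0.221 (0.124 to 0.365) with thinned barcodes. Cat, catalase, had ratios of 0.594 (0.523 to 0.672) in NAPH and 0.343 (0.228 to 0.497) in Control. Bex2 was close in the members of the 2 libraries and differed among the other cells. The next lowest in NAPH, Akap7, Prps2, Ddhd1, Ccdc141 and Gpt, had ratios of 0.523 to 0.597.

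Within the NAPH library, levels changed step by step with the summed Areg and Sprr1a level. The 2561 gated cells were put into 5 classes, with 0, above 0 and below 5, 5 to below 10, 10 to below 20, and 20 or more per 10000 UMIs, of 1671, 736, 83, 45 and 26 cells. Krt8 stood at 160, 331, 647, 1194 and 1971 CPM over these classes, and Sfn at 57.3, 108, 212, 474 and 758 CPM. S100a6 stood at 59.9, 98.9 and 113 CPM in the first 3 and at 734 and 2319 CPM in the upper 2. Krt8 and Sfn therefore climbed already among cells below the threshold, and S100a6 stood out above 10 in NAPH. In Control, S100a6 stood already at 586 CPM in the class below 5, against 92.8 CPM in cells with 0. Sftpc stood at 213250, 200329, 187780, 163673 and 134602 CPM, while Ager stayed between 1473 and 1623 CPM. In the Control library Krt8 stood at 123, 342, 743, 1118 and 1184 CPM in 1588, 197, 15, 8 and 2 cells. The median depth of the NAPH classes lay between 9012.5 and 10462 UMIs.

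**Figure D4:**
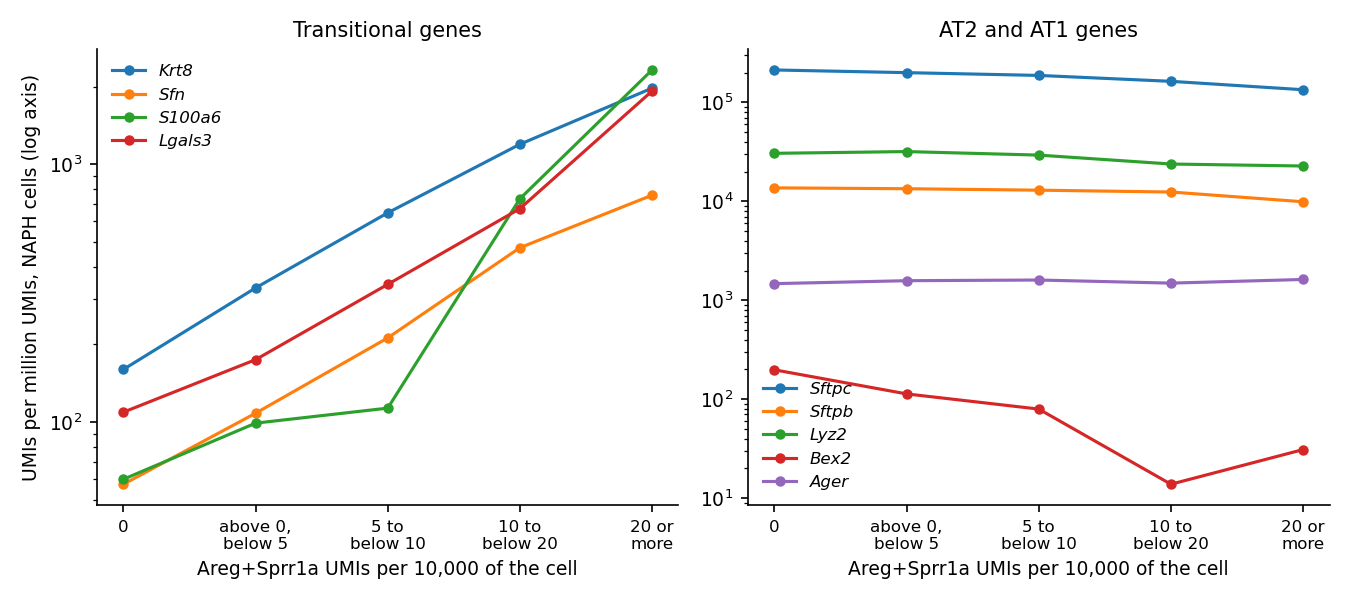
CPM (log axis) of 4 transitional genes (left) and 5 AT2 and AT1 genes (right) in NAPH Sftpc-gated cells put into 5 classes by their Areg and Sprr1a UMIs per 10000. Krt8 goes from 160 CPM in the lowest class to 1971 CPM in the highest, Sftpc from 213250 to 134602 CPM, and Ager shows no slope.

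The genes whose level per cell followed that of Areg and Sprr1a most closely were Krt8, Anxa1, Tnfrsf12a, Krt18, Phlda1, Sfn, Krt19 and Thbs1. Their Spearman coefficients across the 2561 NAPH gated cells, each thinned to 3500 UMIs, ran from 0.275 for Krt8 to 0.202 for Krt19 and Thbs1, among 5310 genes ranked. All are weak, cells share a library, and the coefficients are a description. Phlda1, a target of ERK signalling, stood at 1077 CPM in NAPH members and 320 CPM in the others, a ratio of 3.36 (3.19 to 3.55), and its Control ratio was 4.055 (3.45 to 4.74).

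The members were not uniform. Of the 154 NAPH members, 37 held a Sprr1a UMI and 117 did not, a division made after cell numbers were seen. Of 3746 genes compared between them, 145 (3.87%) were at least 2 times higher in cells with Sprr1a and 68 (1.82%) lower. S100a6 stood at 1921 CPM in members with Sprr1a and 224 CPM in members without, a ratio of 8.57 (7.43 to 9.92), Lgals3 at 1684 and 361 CPM, a ratio of 4.67 (4.12 to 5.295), and Cldn4 at 75.8 and 8.86 CPM, a ratio of 8.56 (4.07 to 19.6). Krt8 stood at 1732 CPM in members with Sprr1a and 781 CPM in those without, a ratio of 2.22 (2.003 to 2.45). Of the transitional list 19 of 24 were at least 2 times higher in the cells with Sprr1a and 0 lower (median 1.38, against 0.09 over all genes).

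Areg itself was lower in members with Sprr1a, at 657 CPM, than in those without, at 990 CPM, which the rule partly sets. Hbegf stood at 98.6 CPM with Sprr1a and 93.0 CPM without, and Atf3 at 43.0 and 39.9 CPM. Of AT2 genes 4 of 25 were at least 2 times lower in the cells with Sprr1a and 0 higher. Slc34a2 stood at 1517 CPM with Sprr1a and 3397 CPM without, a ratio of 0.447 (0.409 to 0.487), and Lrg1, a leucine-rich secreted glycoprotein, at 779 and 2411 CPM, a ratio of 0.323 (0.286 to 0.363). The median UMI count was 10613 in the 32 cells with both genes, 10496 in the 5 with Sprr1a alone and 9067 in the 117 with Areg alone.

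Between transitional cells of the 2 libraries the median ratio of the transitional list lay near that of all genes. The medians of the AT2 and lipid synthesis lists lay above it. Of 2227 genes compared, 91 (4.09%) were at least 2 times higher in NAPH than in Control transitional cells and 38 (1.71%) lower, or 132 and 20 with TMM scaling. Of 19 genes of the transitional list 2 were higher, Hbegf among them, and 2 lower, S100a6 and Cryab, with a median log2 ratio of -0.05, or 1 lower with TMM scaling. Both counts of 2 are larger shares than the 4.09% and 1.71% over all genes. Of 5 keratins, 10 AT1 genes and 20 cytoskeletal genes 0 were past 2 times. Of 25 AT2 genes 8 were higher and 0 lower (median 0.52), and of 18 lipid synthesis genes 9 were higher and 0 lower (median 1.01), against a median of 0.01 over all genes. These lists also differed between the other NAPH and other Control Sftpc-gated cells. There 5 of 26 AT2 genes were higher in NAPH and 2 lower (median 0.16). Of 23 lipid synthesis genes 3 were higher and 0 lower (median 0.50), against a median of 0.09 over all genes.

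Most of the genes furthest apart also differed between the other cells of the 2 libraries, where 400 of 11610 genes (3.45%) were at least 2 times higher in NAPH and 219 (1.89%) lower. Retnla, a resistin-like secreted protein of type 2 inflammation, had 1462 UMIs (959 CPM) in NAPH transitional cells and 0 UMIs in Control transitional cells. Against 3 counts summed over the Control members it was at least 68.2-fold higher in NAPH. In the other cells it stood at 1433 CPM in NAPH and 45.0 CPM in Control, a ratio of 31.9. Lrg1 stood at 1988 CPM in NAPH members and 32.8 CPM in Control members, a ratio of 60.6 (29.4 to 151), and its NAPH over Control ratio in the other cells was 11.7. Control members held 7 UMIs of Lrg1. The ratio was 19.96 (13.5 to 30.9) with members chosen by at least 5 raw UMIs of Areg and Sprr1a and 27.0 (14.2 to 59.2) with thinned barcodes. Scd1 was 8.66 times higher in NAPH members (7.59 to 9.92) and 4.02 times higher in the other NAPH cells, and Pmvk, an enzyme of the mevalonate pathway, 9.38 (6.51 to 14.04) and 5.88 times. Dmkn, Hdc and Pcx had 464, 304 and 138 UMIs in NAPH members and 3, 4 and 2 UMIs in Control members.

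Lower in NAPH transitional cells were the glutathione transferase Gstm1, at 32.8 CPM in NAPH members and 173 CPM in Control members, a ratio of 0.189 (0.121 to 0.2975), and the cyclin gene Ccnd2, at 19.7 and 93.8 CPM, a ratio of 0.210 (0.115 to 0.390). Aox3, an aldehyde oxidase, had a ratio of 0.257 (0.153 to 0.441), Cd24a, a surface sialoprotein, 0.336 (0.207 to 0.559), and Kcnk2, a potassium channel, 0.353 (0.209 to 0.616). Kcnk2 was higher in members than in the others within each library, by 2.90 times (2.12 to 3.90) in NAPH and 5.97 times (3.62 to 9.34) in Control. Gstm1 has near copies in its family, and how reads were split among them was not given in the sources used here. With thinned barcodes the ratios of Aox3, Cd24a and Saysd1 were 0.600 (0.249 to 1.66), 0.609 (0.282 to 1.46) and 0.914 (0.306 to 3.68), no longer 2 times lower, and that of Ccnd2 was 0.457 (0.168 to 1.44). Tmem159, Saysd1 and Igbp1 had ratios of 0.342 to 0.394.

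**Figure D5:**
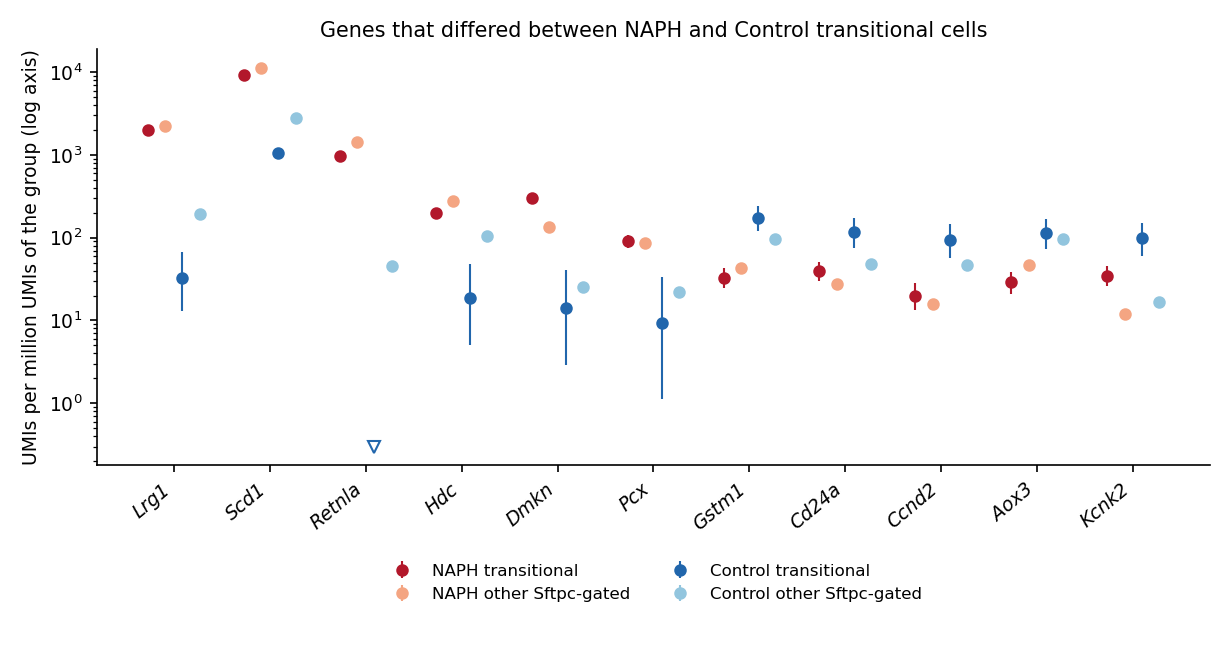
CPM of the cell group (log axis) for 11 genes that were furthest apart between NAPH and Control transitional cells, with exact 95% Poisson intervals for counting error; the open triangle marks 0 UMIs. Lrg1, Scd1, Retnla, Hdc, Dmkn and Pcx are higher in both NAPH groups than in both Control groups, and Gstm1, Cd24a, Ccnd2 and Aox3 are lower in both NAPH groups than in both Control groups.

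RNA of other cell types was present in the members, and that of club cells was abundant. The 6 pan-leukocyte genes summed to 78.1 CPM in NAPH members and 47.0 CPM in the NAPH others, and to 4.69 CPM in Control members and 42.9 CPM in the Control others. With 2 or more of these UMIs as the limit, 4 NAPH members and 0 Control members carried leukocyte RNA, and 3 NAPH members and 0 Control members were among the barcodes left out as doublets. Without the cells carrying leukocyte RNA the same 215 and 69 counts were found in NAPH. The 7 ciliated markers summed to 259 CPM in NAPH members and 164 CPM in the NAPH others, and to 239 CPM in Control members and 151 CPM in the Control others, with Tppp3 the most abundant in the members. The 7 club markers, with Scgb1a1 the most abundant, summed to 5967 CPM in NAPH members and 7266 CPM in the NAPH others, and to 13943 CPM in Control members and 17788 CPM in the Control others. Scgb1a1 stood at 2461 CPM in NAPH members and 2671 CPM in NAPH leukocytes, and at 10769 CPM in Control members and 13787 CPM in Control leukocytes. The definitions of members and of leukocytes both kept it below 1000 per 10000 UMIs of a barcode. The part of these RNAs in the results was not tested beyond this. Among cells that met the ciliated gate, Areg stood at 461 CPM in NAPH and 66.0 CPM in Control, so its RNA was also present outside the alveolar gate. In the NAPH ciliated gate S100a6, Lgals3, Anxa1 and Krt19 stood above the members, at 6674.5, 960, 800 and 452 CPM. Krt8 stood slightly above them too, at 1072 CPM against 1028 CPM, with a UMI in 98.6% of these cells. High Krt8 was thus not particular to the members. Krt18, Krt7, Sfn and Thbs1 stood below the members there, at 661, 208, 155 and 54.7 CPM. In the Control ciliated gate all of these stood below the Control members. Cdkn1a stood above the members in both, at 329 CPM in NAPH and 331 CPM in Control.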

How the data were processed

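The authors deposited raw UMI counts per gene and barcode, made with Cell Ranger against mm10 per the submitters' processing notes; the labels state neither its version nor how cells were called or reads of near copies and overlapping genes counted. The 2 libraries held 3685 NAPH barcodes (38497783 UMIs, at least 3514 each) and 3298 Control barcodes (41699755 UMIs, at least 4212 each). Of 28692 gene IDs 28339 were found in GENCODE vM21.

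Members were found by the rule on all barcodes, with no filter and no doublet removal; a filter (at least 500 genes, at most 20% mitochondrial UMIs) with Scrublet at 0.8% per 1000 barcodes was an alternative. UMIs were summed per library and cell group. Ratios carry exact conditional Poisson intervals and shares exact Clopper-Pearson intervals, both at 95%; free RNA, cells and animals add error that they do not cover. The alternatives also changed the rule, thinned cells, left out leukocyte RNA, changed the minimum level, weighted cells equally and scaled with edgeR 4.0.16 (TMM factors). Leukocytes were barcodes with at least 10 pan-leukocyte UMIs. Per 10000 UMIs they also held fewer than 500 of Sftpc, 1000 of Scgb1a1 and 10 of the ciliated genes of the rule. Python 3.11.15, scanpy 1.11.5 and R 4.3.3 were used. On simulated Poisson counts with a true ratio of 3 the intervals covered it for 96% of genes in the NAPH contrast and 94% in the Control contrast. The counts were drawn from the model of the interval, so coverage near 95% was set in advance and checks only the calculation. UMIs gathered in single cells, as seen for Cxcl2, were not simulated.

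Members, gene lists and markers were chosen with earlier results of these data known. Genes named follow a rule: in each contrast the highest and lowest ratios with at least 50 CPM in the higher group, at least 30 UMIs and an interval that leaves out 1, passing over rule genes, ribosomal, mitochondrial, haemoglobin, Y-linked and X-inactivation genes, unnamed genes and markers of other cell types; the 5 markers; up to 4 highest and 3 lowest of each list; and the 8 genes most like Areg and Sprr1a. Other list members were named after their values were seen. Some list members are not reported here.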

Additional observations from a re-analysis of the deposited data

Results flagged for a closer look

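Of the 1103 NAPH barcodes outside the Sftpc gate, 83 (7.52%) also held at least 5 UMIs of Areg and Sprr1a per 10000, against 4 of 1476 (0.271%) in the Control library; these cells enter no comparison above. Sftpa1, a surfactant protein, was slightly higher in NAPH transitional cells than in the other NAPH Sftpc-gated cells, with a ratio of 1.05 (1.04 to 1.06), and slightly lower in Control transitional cells, with 0.943 (0.920 to 0.966). The 2 intervals lie on opposite sides of 1, and the difference between the libraries was not tested. The sides depended on scaling. TMM shifted all log2 ratios by -0.13 in NAPH and -0.30 in Control. Totals without the 20 genes with most UMIs shifted them by -0.095 and -0.15. Either NAPH shift is larger than the NAPH excess of Sftpa1 over 1, so both ratios then lie below 1.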

How the results depend on the processing

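The ratio of shares was 4.35 and lay between 3.86 and 5.02 under all alternatives run. With only barcodes above the Control minimum, chosen after seeing the data, it was 4.32. Counts of genes moved more. In the order higher and lower, the NAPH contrast had 215 and 69, the Control contrast 147 and 46, and NAPH against Control members 91 and 38. With a minimum level worth 5 UMIs these were 345 and 178, 385 and 117, and 253 and 204; worth 30 UMIs they were 107 and 13, 44 and 16, and 28 and 5. With TMM the lower count in NAPH was 126, the Control counts 61 and 127, and the lower count between members 20. Totals without the 20 top genes gave 105 lower in NAPH and 89 and 87 in Control. Thinned barcodes gave 44 lower in NAPH, 65 and 20 in Control and 24 lower between members. With Sprr1a alone, 5 Control members remained, with 89 higher in Control and 32 and 16 between members. With at least 10 per 10000 there were 55 and 20 between members. Fewer genes or cells entered the stricter settings; the cause of the other shifts was not tested.

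Of 697 ratios of 38 named genes under alternatives, 575 lay within the counting interval of the value reported. A further 121 lay outside it in the same direction. The other 1 was counted as reversed: Cd24a, NAPH over Control members with Sprr1a alone, 1.71 (0.253 to 73.0). Ratios within the interval were not counted as reversed even where they crossed 1. Hbegf in Control members over the others, 0.481 as reported, was 1.64 (0.194 to 6.22) with thinned barcodes and 2.43 (0.0611 to 13.8) with Sprr1a alone. The Control contrasts rest on 25 cells and 213297 UMIs, which limits them to abundant genes. No paired analysis was possible because each group had 1 library.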
